A study of Mus musculus with 6 samples.

Results

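Crystallin genes were followed in single cells of the mouse retina. The genes were picked by name: Cryaa, Cryab, Cryba1, Cryba2, Cryba4, Crybb1, Crybb2, Crybb3, Crygs and Crym. Of these 10 genes, 9 were counted among the 20822 genes measured, and the expression of Cryba2 was not analysed here. The 7 counted genes other than Cryab and Crym are called lens crystallins here.

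Crystallins are the soluble proteins that fill the fibre cells of the lens and give it its refractive power. The alpha-crystallins, Cryaa and Cryab, belong to the small heat shock proteins, which hold unfolding proteins in solution, and Cryab is also made in glia, muscle and other tissues outside the lens. The beta- and gamma-crystallins share a structural fold and are known mainly as lens proteins. Crym, mu-crystallin, is unrelated to them in fold and binds thyroid hormone in the cytosol.

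The cells came from retinas of mice at postnatal day 14 after oxygen-induced retinopathy (OIR), in which pups are kept in high oxygen and returned to room air so that vessels are lost and then regrow. Control mice (eNOS+/+) were wild-type C57BL/6J, and eNOS-/- mice were homozygous for a knockout allele of Nos3, the gene of endothelial nitric oxide synthase, on the same background. Each genotype had 3 replicates, each of pooled retinas, and all groups had OIR. Endothelial cells (ECs) were enriched with beads that bind CD31 and measured by Drop-seq, in which each captured RNA molecule is counted once by its unique molecular identifier (UMI).

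The 6 libraries held 415 to 3710 cells and 617246 to 3350799 UMIs, with a median of 408 to 778 UMIs per cell. The authors annotated the 8944 cells as Structural, Tip or Proliferative ECs, Mural cells, Neuroglia, Optc+ cells, Immune cells, Neurons, Rods or Cones. No cell was annotated Neuroglia in eNOS-/- replicate 3. In that library 61 of 288 ECs (21.2%) carried UMIs of at least 2 mural or at least 2 neuroglial markers, against 4.02% to 7.78% of ECs in the other libraries. Of all 352 such ECs, 311 carried 2 neuroglial markers and 41 carried 2 mural ones, 30 of the latter in eNOS-/- replicate 3. The neuroglial markers included Glul and Apoe, found in 1368 and 673 of all 5925 ECs, so they were not specific to glia. The 5 cells annotated Optc+ in eNOS-/- replicate 3 held none of 5 Optc+ markers. Nos3 did not separate the genotypes, with 19.4, 36.6 and 23.6 UMIs per 1000000 UMIs of ECs in the eNOS+/+ libraries and 21.2, 16.1 and 32.8 in the eNOS-/- libraries, so genotypes are given as labelled. Libraries shared at most 1 cell barcode in a pair. Within libraries the 8944 cells fell into 6900 groups whose barcodes shared the first 11 of 12 bases. Whether cells of a group were parts of 1 cell was not tested, and shares of cells and their intervals count each cell as separate.

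The genes fell into separate patterns. Crym was a gene of Neuroglia, and Cryab of Neuroglia, Optc+ cells and Mural cells. Crybb3 was found at a low level in ECs of every library. Cryba4 and Crybb1 gave a few UMIs in Immune cells, and Cryaa, Cryba1, Crybb2 and Crygs came mostly from a single library. In all, Cryab had 649 UMIs, Crym 260, Crybb3 106, Cryba1 26, Cryaa 19, Cryba4 13, Crygs 11, Crybb2 6 and Crybb1 3.

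**Figure D1:**
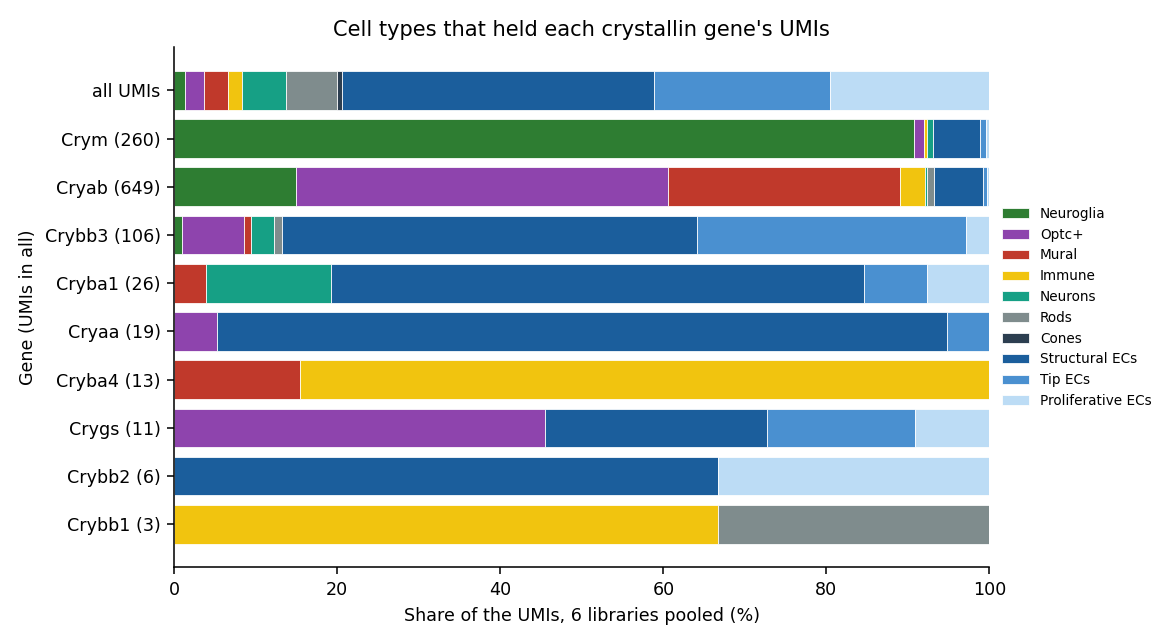
Share of each crystallin gene's UMIs that lay in each annotated cell type, in percent, over the 6 libraries together. The top bar gives the share of all UMIs, the number after each gene is its UMIs, and Neuroglia held 90.8% of the Crym UMIs against 1.32% of all UMIs.

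The promoters of 4 members are shown. Of these, Cryba4 stands for Immune cells, Cryba1 for the single library and Crybb3 for ECs. Crybb1, the neighbour of Cryba4, had 2 UMIs in Immune cells and 1 in a Rod, too few for a pattern. They are the 200 bases before the transcription start in RefSeq (build GRCm38.p6), written 5′ to 3′ on the strand of the gene. Capitals mark TGCTGA, a half-site of the element bound by MAF factors, which are known regulators of lens crystallin genes, or its reverse complement.
Cryba4 (chr5:112252519-112252718, minus strand): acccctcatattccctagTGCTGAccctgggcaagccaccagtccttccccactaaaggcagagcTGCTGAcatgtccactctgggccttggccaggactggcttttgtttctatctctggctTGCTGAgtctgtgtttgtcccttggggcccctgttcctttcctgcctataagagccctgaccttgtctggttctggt
Crybb1 (chr5:112255620-112255819, plus strand): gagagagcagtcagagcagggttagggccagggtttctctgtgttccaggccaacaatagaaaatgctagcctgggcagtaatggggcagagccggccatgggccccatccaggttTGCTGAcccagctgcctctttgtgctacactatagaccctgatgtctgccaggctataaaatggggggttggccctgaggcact
Cryba1 (chr11:77725294-77725493, minus strand): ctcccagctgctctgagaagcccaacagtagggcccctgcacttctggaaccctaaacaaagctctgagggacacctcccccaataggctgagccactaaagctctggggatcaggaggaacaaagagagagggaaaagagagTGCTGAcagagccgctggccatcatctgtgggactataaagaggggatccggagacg
Crybb3 (chr5:113081585-113081784, minus strand): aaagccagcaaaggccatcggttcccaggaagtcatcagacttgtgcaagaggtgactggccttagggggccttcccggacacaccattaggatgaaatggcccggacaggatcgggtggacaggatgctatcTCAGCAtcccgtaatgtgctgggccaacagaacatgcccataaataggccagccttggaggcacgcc
The table of promoters held 8 of the 10 members, without Cryab and Crym. TGCTGA was the only motif searched, on both strands from 250 bases before to 50 bases after the start. It was found in 7 of these 8 promoters, all but that of Crybb2, against 19.5% of all 32851 promoters of that length. Cryba4 held 3 matches, first bases 182, 135 and 77 bases before the start, and each of the other 6 members held 1. A match gives the letters only and shows no binding. Cryba4 and Crybb1 are neighbours that point away from each other, with 3297 bases between them, and Crybb2 and Crybb3 lie 5722 bases apart on the same chromosome.

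Crym (chr7:120186380-120202111, minus strand) was high in Neuroglia of each of the 5 libraries that had these cells and close to 0 elsewhere. Neuroglia held 236 of its 260 UMIs, in 98 of 184 cells. The level is given as CPM, the UMIs of a gene per 1000000 UMIs of the cells summed in a library. In Neuroglia it was 2423, 1149 and 1315 CPM in the eNOS+/+ libraries and 1530.3 and 1734 CPM in the eNOS-/- libraries. All 5 values stood far above those of every other type, where the highest was 41.1 CPM, in Optc+ cells of eNOS-/- replicate 2. The mean in Neuroglia was 1630.2 ± 495 CPM (SD, n = 5). Over the libraries it was 8.74 ± 16.5 CPM (SD, n = 6) in Optc+ cells, the type next in order with at most 2 UMIs in a library, which did not stand apart from the other types beyond its spread. Mural cells, Rods and Cones had no Crym UMI, which allows pooled levels of up to 9.55, 4.57 and 55.5 CPM. These intervals and limits cover counting error only, and since the types were defined by clusters of the same counts, no test was made between types.

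The share of Neuroglia with a Crym UMI was 53.3% (95% Wilson interval 46.1 to 60.3), at a median of 541 UMIs per cell. In Rods, with a median of 361 UMIs, it was 0 of 1508 cells, and in ECs, with 682 UMIs, 12 of 5925 cells (0.203%). With each cell drawn down to 500 UMIs and shallower cells left out, the shares were 52.0% in Neuroglia and 0.0846% in ECs. Of the 98 Neuroglia with Crym, 84 had a UMI of Rlbp1, a retinaldehyde-binding protein of Müller glia, as did 146 of all 184. Gfap, an intermediate filament of astrocytes and of stressed Müller glia, was found in 10 Neuroglia, and 1 of these had Crym. ECs held 18 Crym UMIs, of which 10 were in eNOS-/- replicate 3, all in ECs that carried at least 2 mural or neuroglial markers. In the other 5 libraries ECs had 1 or 2 UMIs each.

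**Figure D2:**
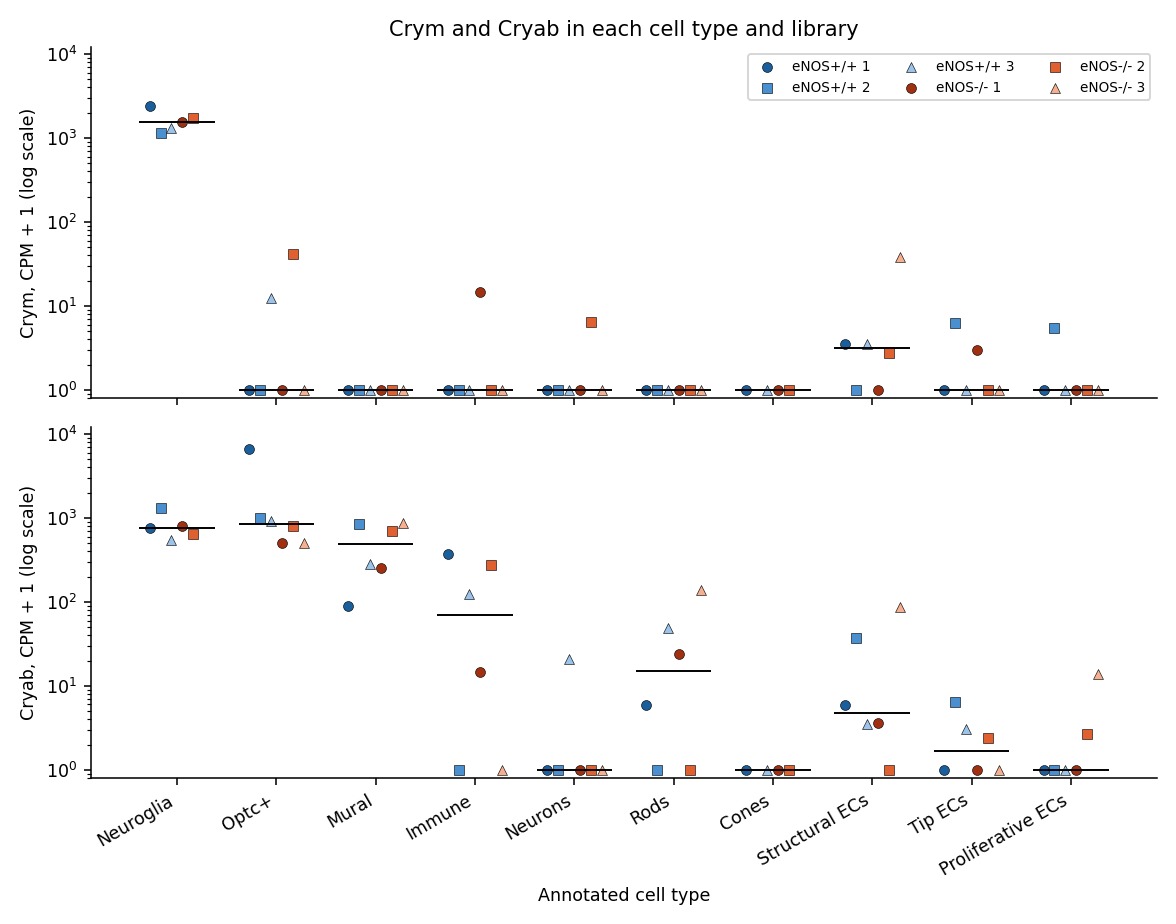
Level of Crym (top) and Cryab (bottom) in each annotated cell type, as CPM + 1 on a log axis, with a point for each library and a line at the median. The 5 values of Crym in Neuroglia lie between 1149 and 2423 CPM, while Cryab is high in Neuroglia, Optc+ and Mural cells.

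Crym carries thyroid hormone within cells, and other genes of the thyroid hormone pathway were measured. Dio2, the deiodinase that makes the active hormone, had 36 of its 43 UMIs in Neuroglia, at 222 ± 125 CPM (SD, n = 5). The receptor Thrb was at 897 ± 241 CPM (SD, n = 4) in Cones, above its 37.3 CPM in Neuroglia, and the receptor Thra was highest in Neurons at 265 ± 216 CPM (SD, n = 6). Dio3, which inactivates the hormone, had 8 UMIs in all, each in Optc+ cells.

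The genes whose level was most like that of Crym over 47 sums of a cell type in a library were Rlbp1 (Pearson r = 0.907 of log2(CPM + 10)), Dbi (0.804), Btg2 (0.788), Vegfa (0.729) and Id2 (0.714). For Cryab they included Dkk3 (0.826), Ptn (0.814), Cd63 (0.805) and Mdk (0.777). For Crybb3 no gene came as close, with Prkch at 0.528, Mecom at 0.523, Rest at 0.51, Fam43a at 0.50 and Asap1 at 0.491. For the lens crystallins summed the 5 closest genes, Mpp5, Srgap2, Vti1b, Gcsh and Ap4m1, were at 0.504 to 0.451. The sums share libraries and depth, so these are descriptions.

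Cryab (chr9:50751325-50756636, plus strand) was spread over Neuroglia, Optc+ cells and Mural cells, which held 97, 296 and 185 of its 649 UMIs, and was close to 0 in Neurons, Tip ECs and Proliferative ECs. In Neuroglia it was 752, 1293 and 538 CPM in the eNOS+/+ libraries and 799.9 and 634 CPM in the eNOS-/- libraries. In Optc+ cells, a type named for the secreted proteoglycan opticin, the level was 6652, 999 and 906 CPM against 497, 801 and 500.4 CPM. In Mural cells, which wrap the vessels, the values were 88.3, 844 and 278 CPM against 250.4, 699 and 860.2 CPM. The eNOS+/+ replicate 1 value stood apart on both sides, as the highest of Optc+ cells and the lowest of Mural cells, where that library had 3 cells and 1 Cryab UMI.

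Means were 803 ± 292 CPM (SD, n = 5) in Neuroglia, 1726 ± 2422 CPM (SD, n = 6) in Optc+ cells and 503 ± 337 CPM (SD, n = 6) in Mural cells. These types did not differ from each other beyond their spread. Neuroglia were above Mural cells in 4 of 5 libraries and Optc+ cells above Neuroglia in 3 of 5. All 3 were above each EC subtype in each library that had them, with ECs as a whole at 11.8 ± 19.1 CPM (SD, n = 6). Immune cells were at 130.0 ± 158 CPM (SD, n = 6), with 0 UMIs in eNOS+/+ replicate 2, which had 1 such cell, and in eNOS-/- replicate 3.

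A single cell of eNOS+/+ replicate 1, annotated Optc+, held 95 of the 649 Cryab UMIs, 6.28% of its 1512 UMIs. It had no UMI of any of the cell type markers used here, Optc included, and also held 8 UMIs of Crybb3 and 4 of Crygs. Without it, Cryab in Optc+ cells was 1109, 999 and 906 CPM in the eNOS+/+ libraries, and its mean over the 6 libraries was 802 CPM in place of 1726.

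Cryab was found in 33.6% of Mural cells (95% Wilson interval 27.7 to 40.2, median 827.5 UMIs per cell), 32.6% of Neuroglia (26.3 to 39.7, median 541) and 48.4% of Optc+ cells (40.7 to 56.2, median 916). In Rods, at a median of 361 UMIs, the share was 0.332%, and in ECs, at 682, it was 0.439%. Drawn down to 500 UMIs per cell the shares were 19.0%, 24.5% and 29.7% in Mural cells, Neuroglia and Optc+ cells, against 0.238% in Rods and 0.254% in ECs. Of the 72 Mural cells with Cryab, 71 had a UMI of Rgs5, a marker of pericytes, as had 205 of all 214 Mural cells. Acta2 or Myh11, markers of contractile mural cells such as smooth muscle, were found in 47 of these 72 cells (65.3%) and in 87 of all 214 (40.7%), at a median of 1741.5 and 827.5 UMIs per cell. Of the Optc+ cells, 11 had a UMI of a listed retinal pigment epithelium marker, and all 11 had Cryab. The markers were Pmel and Mlana, with no UMI of Rpe65 or Ttr. These 11 cells held 26539 UMIs, and the other 146 Optc+ cells held 210529. Pooled Cryab was 1206 CPM in the 11 cells and 1254 CPM in the 146, which included the cell with 95 Cryab UMIs. In Neuroglia, 40 of the 60 cells with Cryab also had Crym, and 56 had Rlbp1, beside 98 and 146 of all 184 Neuroglia. The median was 798.5 UMIs per cell in these 60 cells and 541 in all Neuroglia. Across all types 43 cells had both Cryab and Crym.

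In ECs 24 of the 44 Cryab UMIs came from eNOS-/- replicate 3, all in ECs that carried at least 2 mural or neuroglial markers, and 7 came from the cell of eNOS+/+ replicate 2 described with the lens crystallins. With the ECs that carried such markers left out in every library, the mean in ECs was 4.03 CPM. The first bases of Cryab overlap those of Hspb2, which runs on the other strand, by 1030 bases. Whether counting used the strand was not given in the sources used here, so UMIs from that stretch cannot be assigned with certainty.

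The other small heat shock genes had their own patterns. Hspb2 was at 102 ± 61.1 CPM in Mural cells and 52.3 ± 51.9 CPM in Optc+ cells (SD, n = 6 for each) and had 1 UMI in all in Neuroglia, where Cryab was high. Hspb1 was at 294 ± 123 CPM in Mural cells and 162 ± 105 CPM in Tip ECs (SD, n = 6 for each). Hspb6 was highest in Cones, at 607 ± 803 CPM (SD, n = 4), and Hspb8 stayed at or below 55.1 CPM in the mean of every type.

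Crybb3 (chr5:113075839-113081584, minus strand), a beta-crystallin, was found at a low level in ECs of all 6 libraries. Its level in ECs was 8.49, 27.4 and 11.8 CPM in the eNOS+/+ libraries and 13.0, 6.18 and 8.19 CPM in the eNOS-/- libraries. The highest of these, in eNOS+/+ replicate 2, rested on 1 cell with 9 of its 18 UMIs, and without that cell it was 13.7 CPM. Among ECs of at least 500 UMIs the libraries lay between 6.15 and 13.6 CPM. These 64 cells with Crybb3 held 76 UMIs.

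Within ECs, Crybb3 was found in Structural and Tip ECs and hardly in Proliferative ECs. In Tip ECs it was 9.22, 26.7 and 14.7 CPM in the eNOS+/+ libraries and 23.9, 8.38 and 21.0 CPM in the eNOS-/- libraries. In Proliferative ECs it was 0, 0 and 3.94 CPM and 1.5, 1.69 and 0 CPM, with 3 UMIs in 2021381. The values of these subtypes did not overlap, and Structural ECs, at 3.74 to 52.6 CPM, were above Proliferative ECs within each of the 6 libraries. Tip and Structural ECs overlapped, with Tip ECs higher in 4 of 6 libraries. The 3 subtypes were defined on the same counts, so the order is a description.

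**Figure D3:**
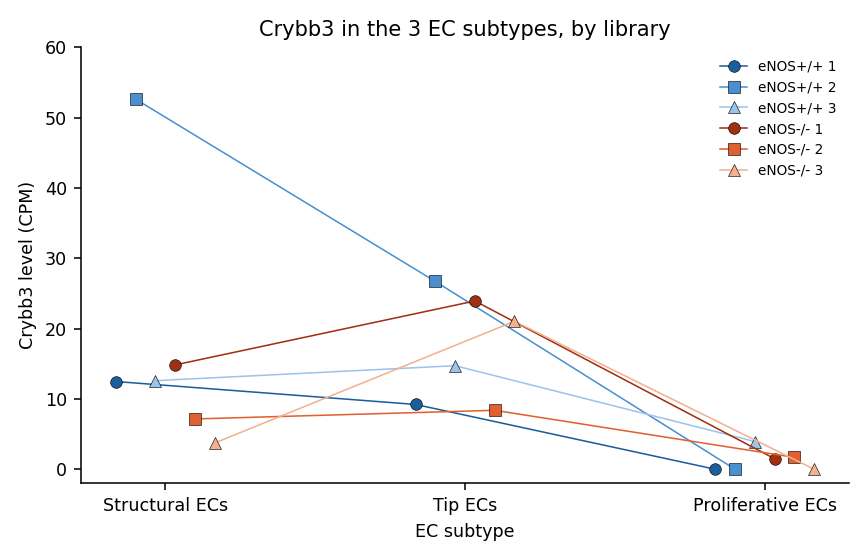
Level of Crybb3 in CPM in the 3 EC subtypes, with a point for each library and a line that joins the points of a library. Proliferative ECs lie between 0 and 3.94 CPM and Tip ECs between 8.38 and 26.7 CPM.

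The share of cells with a Crybb3 UMI was 2.17% of Tip ECs (95% Wilson interval 1.53 to 3.06, median 1007 UMIs), 1.11% of Structural ECs (0.806 to 1.53, median 491) and 0.258% of Proliferative ECs (0.0878 to 0.756, median 963.5). In Rods, at a median of 361 UMIs, it was 0.0663%. With 1 cell kept per group of alike barcodes the shares were 2.44%, 1.25% and 0.120% of the EC subtypes, the last from 1 of 836 cells. Drawn down to 500 UMIs the shares were 0.733%, 0.304% and 0% of the EC subtypes, where 0 of 807 Proliferative ECs had a UMI, and 0% of Rods. ECs held 86.8% of the Crybb3 UMIs and 79.5% of all UMIs. Outside ECs the depth differed among types. Immune cells and Cones had no Crybb3 UMI, which allows up to 17.9 and 55.5 CPM, so a level like that of ECs was not detectable there. The deepest types outside ECs were Rods, with 1 Crybb3 UMI in 656387, and Neurons, with 3 in 562286. Their pooled levels were 1.52 and 5.34 CPM, beside 11.2 CPM in ECs. The 14 UMIs outside ECs included the 8 of the Optc+ cell of eNOS+/+ replicate 1.

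Cryba4 (chr5:112246493-112252518, minus strand) and its neighbour Crybb1 (chr5:112255815-112269585, plus strand), both beta-crystallins, gave few UMIs, most of them in Immune cells. Immune cells held 11 of the 13 Cryba4 UMIs, and Mural cells of eNOS-/- replicate 2 the other two. In Immune cells it was at 609 CPM in eNOS+/+ replicate 1, from 5 UMIs, at 127 CPM in eNOS-/- replicate 2, from 6 UMIs, and at 0 in the other 4 libraries. The 2 libraries with UMIs had 21 and 74 Immune cells and the other 4 had 1, 26, 65 and 29, for which 3 UMIs would be 41.4 to 8596 CPM. The mean was 123 ± 244 CPM (SD, n = 6), and 25.5 CPM without eNOS+/+ replicate 1. ECs had no Cryba4 UMI, which allows a pooled level of up to 0.364 CPM.

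Cryba4 was found in 9 of 216 Immune cells (4.17%, 95% Wilson interval 2.21 to 7.73), at a median of 518 UMIs per cell. It was found in 0 of 1508 Rods, at a median of 361, and in 2 of 114 Immune cells (1.75%) drawn down to 500 UMIs. Of the 9 cells, 7 had a UMI of an immune marker, as had 75.5% of all Immune cells. None of the 9 had a marker of the retinal pigment epithelium, which 16 of all 216 Immune cells (7.41%) had. Crybb1 had 3 UMIs, all in eNOS-/- replicate 2, with 2 in Immune cells and 1 in a Rod. No cell had both genes.

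Cryaa, Cryba1, Crybb2 and Crygs came mainly from eNOS+/+ replicate 2. This library held all 19 Cryaa UMIs, all 6 Crybb2 UMIs, 18 of 26 Cryba1 UMIs and 6 of 11 Crygs UMIs. It was also the only library with UMIs of the gamma-crystallins Crygb (32), Crygc (12) and Crygd (7). Cryba1 had 4 UMIs in each of eNOS-/- replicates 1 and 2, and Crygs had 5 in eNOS+/+ replicate 1.

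A single cell of that library, annotated Structural EC, held 69 of the 100 UMIs that these 7 genes had there. Crystallins of all kinds made up 85 of its 253 UMIs (33.6%), led by Crygb with 27 and Cryaa with 15. It held 1 UMI of the EC markers and 1 of Bfsp2, a gene of the lens fibre cytoskeleton, and none of the markers of the other types. The other 31 UMIs lay in 21 cells, with at most 4 in a cell: 7 Structural, 3 Tip and 6 Proliferative ECs, 2 Optc+ cells, 2 Neurons and 1 Rod. In the other 5 libraries these 7 genes had 13 UMIs in 9 cells.

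The make-up of the lens crystallin UMIs therefore differed among libraries. Crybb3 made up 26.9% of them in eNOS+/+ replicate 2, and 60%, 100%, 88.6%, 55.9% and 100% in eNOS+/+ replicates 1 and 3 and eNOS-/- replicates 1, 2 and 3. The 184 UMIs lay in 111 cells, of which 91 had exactly 1. Only 5 cells had 2 or more kinds of lens crystallin, and 4 of these were in eNOS+/+ replicate 2. Of 7 lens marker genes, 4 were counted. Mip, the main membrane protein of lens fibres, had no UMI in any library, and the counted lens markers together had 0 to 11 UMIs in a library, with 2 in eNOS+/+ replicate 2. Whether lens RNA in the suspension contributed to the crystallin UMIs was not tested.

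**Figure D4:**
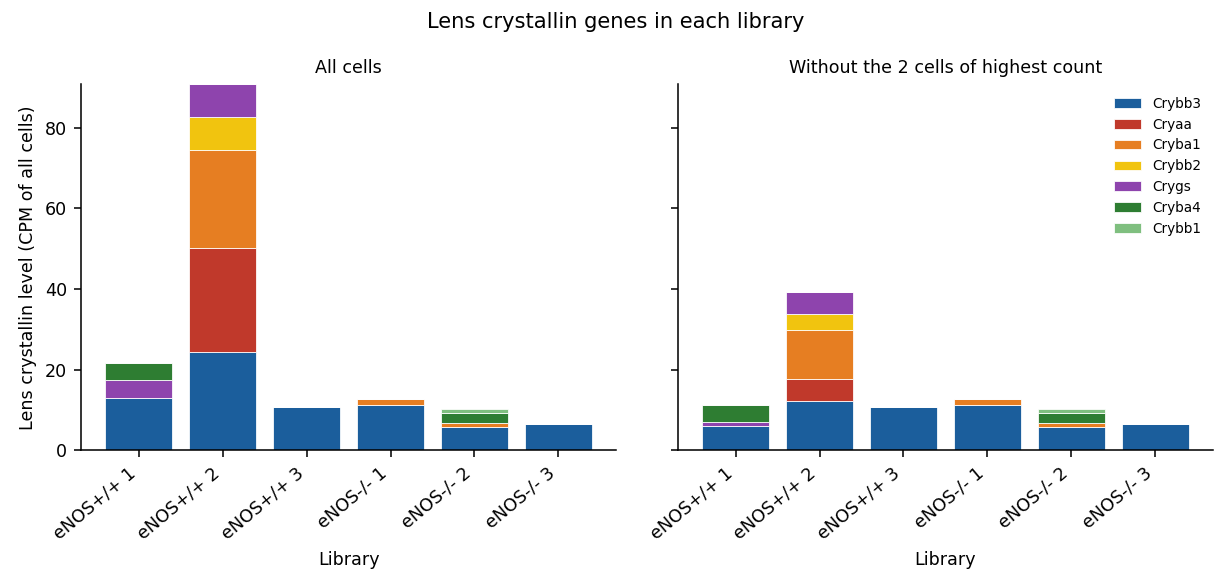
Level of the lens crystallin genes in each library, in CPM of all cells, stacked by gene, for all cells (left) and without the 2 cells of highest count (right). Cryaa, Cryba1 and Crybb2 make up most of the bar of eNOS+/+ replicate 2, and Crybb3 is in every bar.

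Counts of 4 of these genes are uncertain where other genes overlap them in GENCODE: Cryaa (chr17:31677807-31681733) an antisense gene, Cryba1 (chr11:77718615-77725283) Nufip2 on the other strand, Crybb2 (chr5:113058258-113070117) Gm43247 on the other strand, and Cryab Hspb2 as above. Crygs (chr16:22805203-22811577) has no such overlap.

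Further crystallin family genes with enzymatic or other roles were at low levels in most types. Of 15 listed, 11 were counted. Cryz, a quinone oxidoreductase, was at 100.4 ± 90.9 CPM (SD, n = 5) in Neuroglia and 8.46 ± 4.01 CPM (SD, n = 6) in all ECs. Cryzl1 was at 138 ± 185 CPM (SD, n = 6) in Neurons, and Crybg3 at 38.2 ± 11.9 CPM (SD, n = 6) in ECs, where 262 cells had a UMI. Of the 17 genes listed for lens fibre and lens epithelium, 7 were counted, and Tdrd7, a granule protein also found outside the lens, held 320 of their 399 UMIs.

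All 10 listed transcription factors that are known to regulate crystallin genes were counted. Pax6, a master regulator of eye development, was at 1143 ± 670 CPM in Optc+ cells (SD, n = 6) and 762 ± 338 CPM in Neuroglia (SD, n = 5), and at 7.98 ± 14.1 CPM in Mural cells (SD, n = 6). Maf was highest in Immune cells at 396 ± 308 CPM (SD, n = 6). Sox2 was highest in Neuroglia at 246 ± 139 CPM (SD, n = 5), and Prox1 in Neurons at 892 ± 532 CPM (SD, n = 6). Sox1 had 2 UMIs.

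The genotypes were compared on UMIs summed per library within a type, with the quasi-likelihood test of edgeR, p-values adjusted by Benjamini and Hochberg's method over all genes tested, and a limit of 0.05. No crystallin gene was called. In ECs 1 of the 9 counted members passed the filter on low counts and 0 were called, against 0.0211% of 9483 genes. In Neuroglia 2 were tested and 0 called (0% of 472 genes), in Mural cells 1 was tested and 0 called (0% of 1059 genes), and in Optc+ cells 1 was tested and 0 called (0.448% of 670 genes). No member passed the filter in Neurons (0% of 982 genes called) or Rods (0.0657% of 1522 genes called). At an unadjusted p under 0.05 edgeR had 548, 28, 51, 62, 41 and 27 genes in ECs, Neuroglia, Mural cells, Optc+ cells, Neurons and Rods, and DESeq2 called 3, 0, 0, 4, 0 and 0. The fits of Mural and Optc+ cells were added after seeing where Cryab was high.

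Crym and Cryab in Neuroglia lay within the same range in both genotypes. Crym was 1629 ± 693 CPM (SD, n = 3) in eNOS+/+ and 1632 ± 144 CPM (SD, n = 2) in eNOS-/-, and the log2 fold change was 0.09 (standard error 0.50, edgeR adjusted p = 0.968). Cryab there was 861 ± 389 CPM (SD, n = 3) and 717 ± 118 CPM (SD, n = 2), a log2 fold change of -0.03 (standard error 0.51, edgeR adjusted p = 0.985). The eNOS-/- group rests on 2 libraries, since eNOS-/- replicate 3 had no cells of this type.

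Cryab in Mural cells overlapped between genotypes, at 403 ± 393 CPM (SD, n = 3) in eNOS+/+ and 603 ± 316 CPM (SD, n = 3) in eNOS-/-. The log2 fold change was 0.52 (standard error 0.59, edgeR adjusted p = 0.933). It ranged from 0.21 without eNOS-/- replicate 3 to 1.62 without eNOS+/+ replicate 2, and in none of the 11 alternatives did it pass the limit.

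In Optc+ cells the eNOS+/+ libraries, at 906 to 6652 CPM, all lay above the eNOS-/- libraries, at 497 to 801 CPM. All eNOS-/- libraries lay below all eNOS+/+ libraries for 13% of the 670 genes tested in these cells and above them for 5.97%. The log2 fold change of Cryab was -2.12 (standard error 0.62, unadjusted p = 0.000901, edgeR adjusted p = 0.0967), which did not pass the limit. Without the cell with 95 Cryab UMIs it was -0.63 (edgeR adjusted p = 0.912), and the groups, at 906 to 1109 CPM and 497 to 801 CPM, did not overlap, as was so in this direction for 13.5% of the 679 genes then tested, with 5.89% in the other. Markers listed for the retinal pigment epithelium also differed among libraries in Optc+ cells. They were at 4628 and 4294 CPM in eNOS-/- replicates 1 and 2 and 0 to 11.3 CPM in the other 4. These UMIs were of Pmel (275) and Mlana (84), and none were of Rpe65 or Ttr, which were listed too. Pigment epithelium identity of these cells was not tested. Without the 11 cells that carried Pmel or Mlana, Cryab in the eNOS-/- libraries was 471, 446 and 500.4 CPM, and 6652, 999 and 898 CPM in the eNOS+/+ libraries. Without eNOS-/- replicate 3, whose 5 Optc+ cells held no Optc+ marker and mural markers at 22767 CPM, the change was -1.92 and passed the limit (edgeR adjusted p = 0.00296), with that cell included. Without eNOS+/+ replicate 1 it was -0.60 (edgeR adjusted p = 0.926).

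Crybb3 in ECs was 15.9 ± 10.1 CPM (SD, n = 3) in eNOS+/+ and 9.11 ± 3.48 CPM (SD, n = 3) in eNOS-/-, values that overlapped. The log2 fold change was -0.70 (standard error 0.49, edgeR adjusted p = 0.908). It was smaller without eNOS+/+ replicate 2 (-0.19), without eNOS-/- replicate 2 (-0.41), with cells of at least 500 UMIs (-0.10) and without the 2 cells of highest count (-0.30). The change was larger without eNOS+/+ replicate 1 (-0.96), without eNOS+/+ replicate 3 (-0.89), with the replicate number as a block (-0.77) and by DESeq2 (-0.74). Without eNOS-/- replicate 1 Crybb3 did not pass the filter. Without the cell with 9 Crybb3 UMIs the eNOS+/+ mean was 11.3 ± 2.65 CPM (SD, n = 3).

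**Figure D5:**
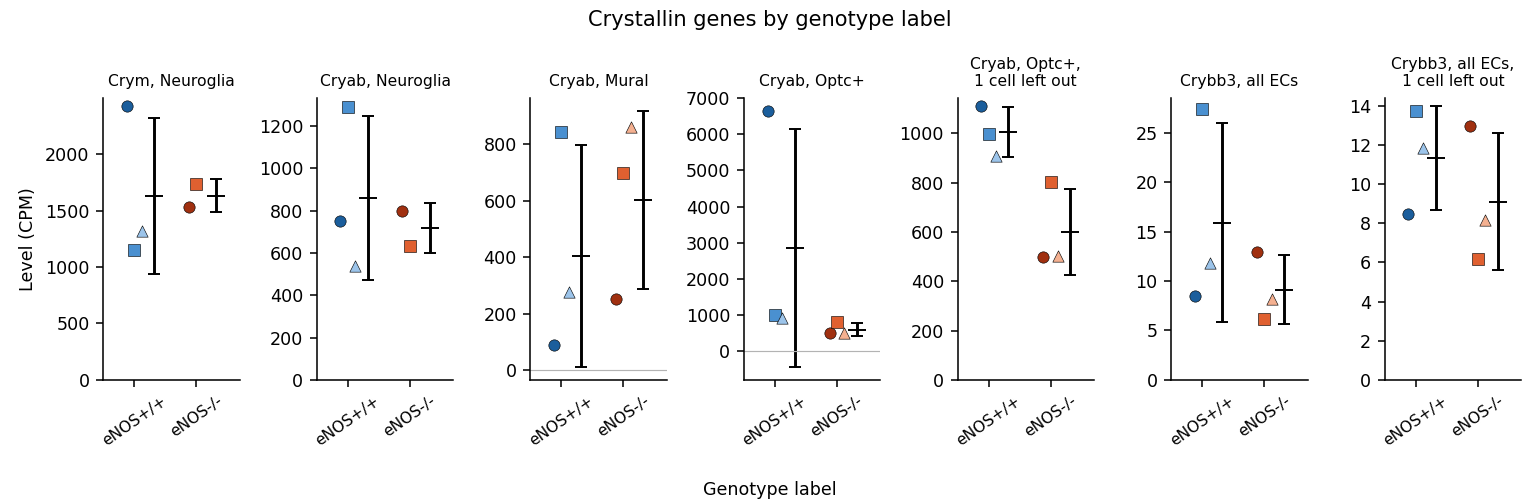
Level in CPM of Crym, Cryab and Crybb3 by genotype label in the cell types where they were tested, with a point for each library (circle, square and triangle for replicates 1, 2 and 3) and the mean ± SD beside them. Among these panels only those of Cryab in Optc+ cells show no overlap, at 906 CPM or more against 801 CPM or less, as for 13% of all genes tested in these cells.

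The lens crystallins summed over all cells were 21.7, 90.8 and 10.8 CPM in the eNOS+/+ libraries and 12.7, 10.1 and 6.48 CPM in the eNOS-/- libraries. The eNOS+/+ replicate 2 value stood apart, and the other libraries overlapped between genotypes. The difference of the eNOS-/- from the eNOS+/+ mean was -31.3 CPM (41.1 ± 43.4 against 9.79 ± 3.15 CPM, SD, n = 3 in each group). By an exact permutation test, two-sided, p was 0.2, where 3 against 3 cannot go below 0.1. Without eNOS+/+ replicate 2 the difference was -6.47 CPM (exact permutation test, p = 0.4), and without the 2 cells of highest count it was -10.7 CPM (exact permutation test, p = 0.4).

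None of the other listed genes was called between genotypes where it passed the filter. In ECs 4 further crystallin family genes, 1 lens fibre gene, 2 small heat shock genes, 5 transcription factors and 2 thyroid hormone genes were tested, with median log2 fold changes of -0.16, -0.20, -0.58, -0.49 and -0.01 beside 0.01 over all genes tested. In the other 5 types together 1 lens fibre gene, 1 thyroid hormone gene, 1 small heat shock gene and 5 values of transcription factors were tested, each at an edgeR adjusted p of 0.842 or more.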

How the data were processed

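The authors deposited a table of UMI counts per gene and cell with a table of cell annotations. The study's methods name kb-python for counting, and the submitters' processing notes name bcl2fastq, Seurat 3 and GRCm38. The authors removed cells with few genes or many mitochondrial UMIs and clusters of red blood and pigment epithelium cells. The annotation version and use of strand are not given in the sources used here. The deposited cells were all marked singlets, with 101 genes or more and at most 9.99% mitochondrial UMIs. The label ECs is called Structural ECs here, and 13 annotation columns were not used.

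UMIs were summed per cell type and library and scaled to CPM. Genotypes were compared with edgeR 4.0.16 (filterByExpr, TMM, quasi-likelihood test, Benjamini-Hochberg) in R 4.3.3, with DESeq2 1.42.0 as an alternative. Single sums were compared by exact permutation (scipy 1.17.1). Tested on simulated data, the edgeR step recovered, of 200 genes changed by 2 on the log2 scale, 181 in ECs (9177 genes, 10 false calls), 139 in Neurons (733 genes, 14 false calls), 148 in Neuroglia (379 genes, 3 false calls), 128 in Rods (1217 genes, 7 false calls), 145 in Mural cells (934 genes, 7 false calls) and 155 in Optc+ cells (579 genes, 7 false calls). The genes in brackets are those that passed the filter again in the simulated counts. The 200 were drawn from the genes tested in each type, such as 472 in Neuroglia and 670 in Optc+ cells. With so many changed genes a limit on adjusted p is easier to pass than with a lone one. These counts therefore do not give the chance of calling a single changed crystallin gene. Each replicate pooled several retinas, so p-values measure the spread between these pools. Gene positions are from GENCODE on GRCm38 and promoters from RefSeq. Alternatives covered normalisation, the filter on low counts, cells of at least 500 UMIs, mitochondrial genes, pooling, cells with alike barcodes and each library left out. Leaving out single cells or cells with markers of other types, and the Mural and Optc+ fits, were chosen after seeing the data.

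The members and lists were chosen with earlier results of these data known. Named genes are the members, genes of the lists (15 further crystallin family genes, 17 of lens, 6 small heat shock, 10 regulators, 5 of thyroid hormone), cell type markers, and the 5 genes most correlated with a member among genes with at least 500 UMIs. Some genes of these lists are not reported here.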

Additional observations from a re-analysis of the deposited data

How the results depend on the processing

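Of 294 alternative values, 250 kept their direction and side of the limit or their level within the spread. Another 37 counts or values moved, 6 reversed and 1 passed the limit. A level counted as kept if it moved by less than its SD. Leaving out 1 library cannot move a mean that far, so the 46 levels of that kind were bound to count as kept. Some kept levels moved far: Cryba4 in Immune cells from 123 to 22.5 CPM with cells of at least 500 UMIs. Cryab in Optc+ cells went from 1726 to 741 CPM without eNOS+/+ replicate 1. The summed lens crystallins could only count as kept or reversed, since their exact permutation p cannot go under 0.05. Without the filter on low counts edgeR called 84 genes in ECs (1 a crystallin), 1 in Neurons, 3 in Neuroglia, 3 in Mural cells and 9 in Optc+ cells. The crystallin was not Crybb3 (edgeR adjusted p = 0.846) but a member that the filter removes, each of which had at most 44 UMIs in ECs. With cells of at least 500 UMIs edgeR called 1 gene in ECs, 1 in Neurons and 0 in Rods. DESeq2 called 0 in Rods, and RLE scaling gave 5 in Optc+ cells. Leaving out 1 library gave 0 to 78 genes in ECs (78 without eNOS-/- replicate 3), 0 to 3 in Neurons, 0 to 5 in Rods and 0 to 23 in Optc+ cells, and 0 to 1 crystallins in Optc+ cells. The log2 fold change of Cryab in Neuroglia reversed to 0.40 without the filter, 0.14 without eNOS+/+ replicate 2 and 0.10 without eNOS-/- replicate 2, and ran from -0.29 to 0.14 with 1 library left out. That of Crym reversed to -0.18, -0.08 and -0.04 without eNOS+/+ replicate 2, eNOS+/+ replicate 3 and eNOS-/- replicate 2, and ran from -0.18 to 0.56. That of Cryab in Mural cells was 1.03 without the filter. The cause was not tested.

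Drawn down to 500 UMIs, the share of cells with Cryab moved to 24.5% of Neuroglia, 19.0% of Mural cells and 29.7% of Optc+ cells, with Crybb3 to 0.367% of ECs and with Cryba4 to 1.75% of Immune cells. Cryab in ECs was 4.35 CPM without eNOS-/- replicate 3, the lens crystallins in ECs 10.3 CPM without eNOS+/+ replicate 2, and their genotype difference -7.42 CPM with cells of at least 500 UMIs.

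Replicate numbers were shared between genotypes, and in ECs the deviations of same-numbered libraries correlated at 0.252, -0.089 and 0.225 for replicates 1, 2 and 3. Not every pair was above 0.1, so the numbers were not taken to pair the libraries. With the replicate number as a block edgeR called 1 gene in Neuroglia, 0 in Rods and 0 in Optc+ cells, and the exact permutation p of the lens crystallins within numbers was 0.25 at a difference of -31.3 CPM.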
